A study of Mus musculus with 4 samples.

Results

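Interferon-stimulated genes are genes that a cell switches on after an interferon has bound its receptors. A list of 39 such genes was followed through single-cell RNA sequencing of mouse high-grade gliomas driven by MYCN (HGG-MYCN), by taking their rows in all 4 count matrices. The files held a feature for 37 of them among 21861 features, while Mx1 and Mx2 had none and were not analysed here. The questions were in which cells of the tumors these genes were expressed, and whether their levels differed between mice of 43 days (P43) and 70 days (P70).

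All 4 mice carried hGFAP-cre and lsl-MYCN, a transgene that is silent until Cre removes a stop cassette, so there was no tumor-free control among them. Because hGFAP drives Cre in radial glia, the progeny of these stem cells carries the recombined alleles whatever its later fate, and the model is not limited to 1 cell type. Mouse 4 and mouse 5 were P43 and mouse 6 and mouse 7 were P70, with 1 library per mouse. The tumors were dissociated with papain, stored frozen and sorted for living cells, and the suspension held the tumor cells and the cells of the tumor microenvironment. The libraries held between 13106786 and 40621958 molecules, counted by unique molecular identifiers (UMIs), and 10975 cells were kept. The median depth differed between mice, from 1419 UMIs per cell in mouse 4 to 10450 in mouse 7. Between all pairs of libraries, 15 cell barcodes occurred more than once. The Y-linked genes Eif2s3y, Ddx3y, Kdm5d and Uty together made up 224.8 of 1000000 UMIs in vessel and immune cells of mouse 4, whose label is female, and 0.437 in mouse 5, whose label is male. Both P43 libraries thus went against their labelled sex, whereas the P70 libraries did not, and no comparison by sex was made. No preparation batch is given, so that age and the library of each mouse cannot be told apart.

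Type I interferons (IFN-α and IFN-β) bind IFNAR1 and IFNAR2, and IFN-γ binds IFNGR1 and IFNGR2. Both receptors signal through Janus kinases and STAT proteins. A complex that includes STAT2 and IRF9 binds the interferon-stimulated response element (ISRE) in promoters, while other STAT dimers bind the gamma-activated site (GAS). The products block viral entry, destroy viral RNA, sense nucleic acids, tag proteins or feed back on the pathway, and in the brain microglia, infiltrating leukocytes and vessel cells are known for responding.

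The promoters of the members were searched for these elements. RefSeq promoter windows of GRCm38.p6, reaching from 250 bases before to 50 bases after each gene's start, were at hand for 29 of the 37 measured members. The ISRE core was taken as GAAANNGAAA on either strand. It stood in a window of 18 of 29 members (62.1%), against 3.99% of the 27025 genes of the table. The GAS letters TTCNNNGAA were found for 10 of 29 members (34.5%), against 9.55% of all genes. A match describes the letters and was not tested as a binding site. For 6 members that are either among the most abundant or changed with age, the stretch around the cores that lie before the start is shown 5′ to 3′ on the gene's strand, with the cores in capitals. Where cores overlap, they form 1 run of capitals.
Isg15 (chr4:156200845-156200926, minus strand): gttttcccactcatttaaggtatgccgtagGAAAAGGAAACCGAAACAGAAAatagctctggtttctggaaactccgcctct
Bst2 (chr8:71537557-71537632, minus strand): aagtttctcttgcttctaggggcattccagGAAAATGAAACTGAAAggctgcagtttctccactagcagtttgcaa
Ifit1 (chr19:34640755-34640843, plus strand): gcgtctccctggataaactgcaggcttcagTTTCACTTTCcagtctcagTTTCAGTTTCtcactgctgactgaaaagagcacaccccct
Ifit3 (chr19:34583343-34583446, plus strand): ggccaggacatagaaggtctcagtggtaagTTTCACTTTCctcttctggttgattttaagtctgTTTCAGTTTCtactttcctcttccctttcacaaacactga
Gbp7 (chr3:142530253-142530322, plus strand): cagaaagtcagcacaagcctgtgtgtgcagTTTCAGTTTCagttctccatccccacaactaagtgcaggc
Trim30a (chr7:104465194-104465259, minus strand): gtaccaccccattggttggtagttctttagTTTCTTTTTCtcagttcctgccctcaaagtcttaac
Isg15 held 3 overlapping cores between 78 and 66 bases before its start, Bst2 2 overlapping ones, and Ifit1 and Ifit3 2 separate ones each. The match in Ifih1, both matches in Ifitm3 and a further one in Trim30a lay after the start and are not shown. Irf7, Ifit2, Xaf1, Oasl2 and Samhd1 had a window without the core.

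The cells were clustered without the members among the variable genes, and classes were named by marker lists and by the reporter genes human MYCN and firefly luciferase. OL-like cells, tumor cells with markers of immature oligodendrocytes such as Bcas1 and Cldn11, were the most abundant class with 1771, 222, 311 and 1820 cells in mice 4, 5, 6 and 7. At least 20 cells in each mouse were also found for endothelial cells (EC), mural cells (pericytes and smooth muscle), Myeloid cells (macrophages, microglia and monocytes), dendritic cells (DC) and Lymphoid cells (T and NK cells). In mouse 7 these numbered 38, 34, 141, 69 and 22 cells. NB-like (neuroblast-like) and AC-like (astrocyte-like) tumor cells, oligodendrocyte precursor (OPC) and mature oligodendrocyte (MOL) cells, plasmacytoid dendritic cells (pDC), B cells and neutrophils were sufficient in some mice only. Levels are given as counts per 1000000 UMIs (CPM), after all UMIs of a class in a mouse had been summed. The members summed to 186, 181, 376 and 309 CPM in OL-like cells of mice 4, 5, 6 and 7. In EC the sums were 3520, 7188, 5539 and 3911 CPM, and in mural cells 1571, 1824, 6156 and 3003 CPM. Vessel cells therefore stood above the tumor cells in every mouse. Myeloid cells reached 8220, 6092, 15514 and 4755 CPM, DC 8862, 3767, 13915 and 5561 CPM, and Lymphoid cells 1811, 1814, 5564 and 4790 CPM. The sums of the P43 and P70 mice overlapped in EC, Myeloid cells and DC and did not overlap in OL-like, mural and Lymphoid cells. At a resolution of 1.0 the Myeloid cells divided into a cluster led by C1q genes, with 4629, 3172, 7664 and 2349 CPM, and a cluster with monocyte markers, with 10771, 10639, 26078 and 10239 CPM. The monocyte cluster was the higher one in each mouse, but interferon-induced genes such as Cxcl10 and Ms4a4c were among the genes that set it apart, so its level is only a description.

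**Figure D1:**
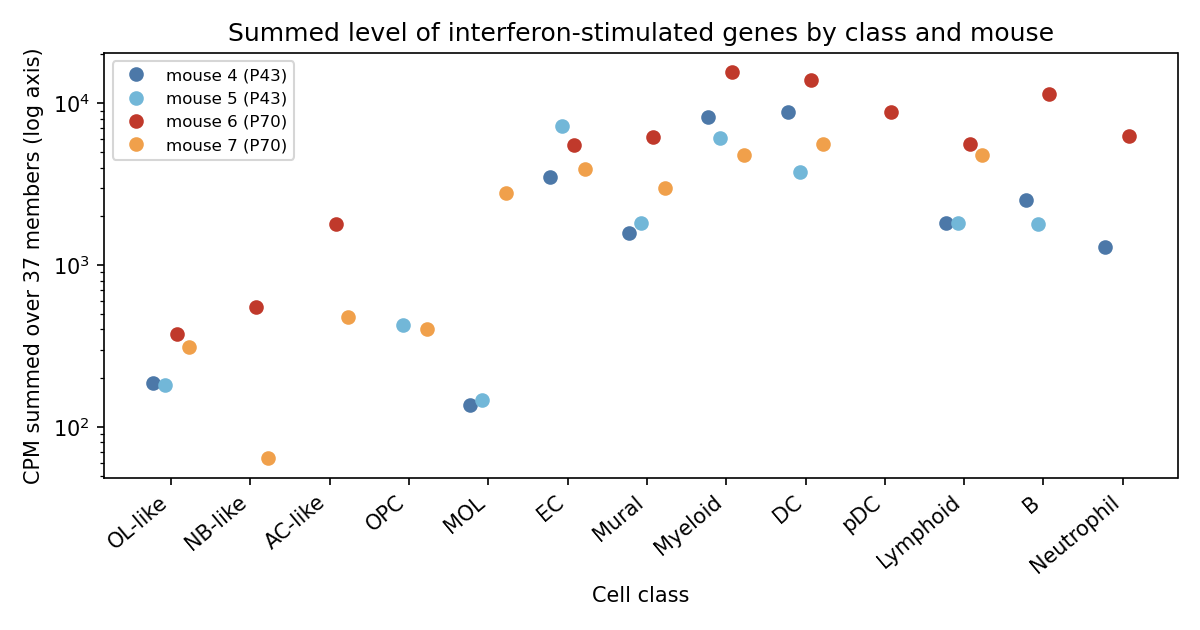
CPM summed over the 37 members (log axis) in each class, 1 point per mouse with at least 20 cells of the class. Vessel and immune classes lie above the OL-like cells in every mouse, and mouse 6 is the highest point in OL-like, Mural, Myeloid, DC and Lymphoid, while mouse 5 is the highest in EC.

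Mouse 6 carried the highest levels of most members in the immune and mural cells. It ranked first of the 4 mice for 36 of 37 members in Myeloid cells, where this held for 22.3% of all genes tested, and for 29 of 35 in DC, against 22.3%. In mural cells it ranked first for all 20 members tested, against 16% of all genes. In Lymphoid cells the number was 16 of 30, against 22.6%, and in OL-like cells 15 of 29, against 21.8%. EC departed from this order. There mouse 5, a P43 mouse, ranked first for 27 of 35 members, against 25.4% of all genes, and mouse 6 for 6, against 18.1%. Mouse 6 also stood above the other mice in classes too small for a test, with 11389 CPM in B cells against 2517 and 1800 CPM in mice 4 and 5. Its pDC held 8865 CPM and its neutrophils 6267 CPM, the latter against 1297 CPM in mouse 4. In B cells the 12 Myeloid markers summed to 2763 CPM in mouse 6, against 1295 and 554 CPM in mice 4 and 5. Of the 10 neutrophil markers, 6 were at 0 in the neutrophils of mouse 4, against 0 in those of mouse 6. The part of RNA from other cells in these levels was not tested.

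**Figure D2:**
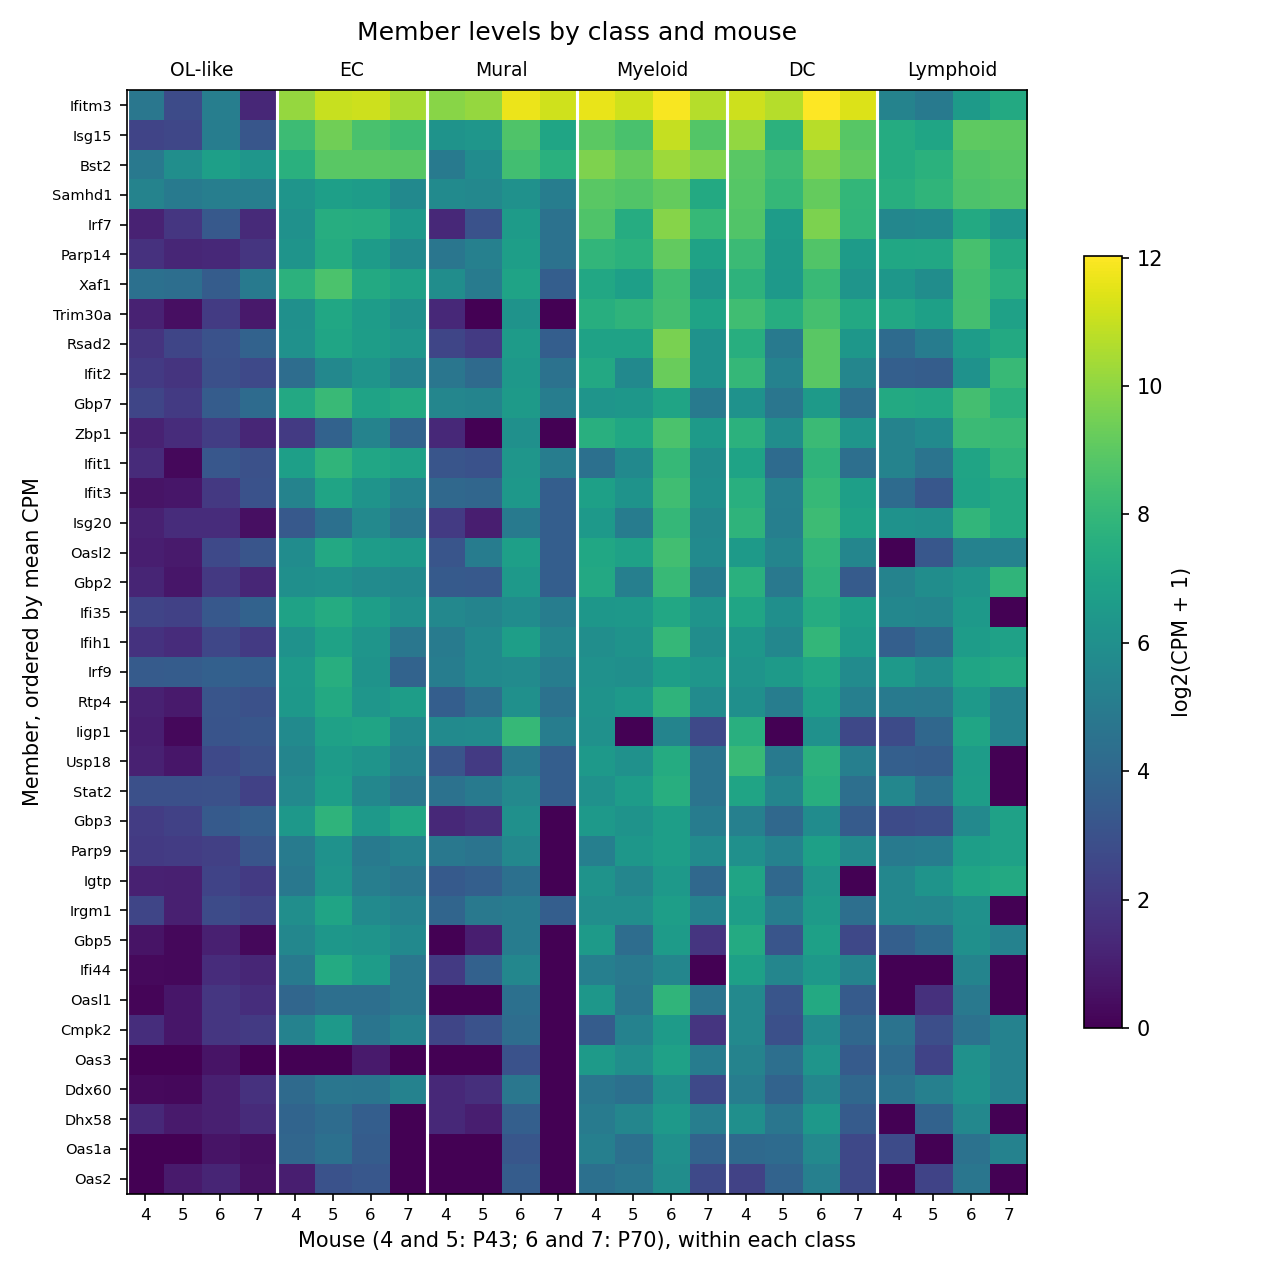
Level of each of the 37 members as log2(CPM + 1), in 6 classes and the 4 mice, with members ordered by their mean CPM. Ifitm3 is the most abundant member in vessel and myeloid cells, the OL-like columns are dark, and the column of mouse 6 is the brightest in Mural, Myeloid and DC.

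Compared with OL-like cells of the same mice, nearly all members were higher in every vessel and immune class (edgeR quasi-likelihood test with the mouse as a block, Benjamini-Hochberg adjustment over all genes). A gene was kept if it reached a count limit in as many samples as the smallest group of the comparison held. These samples could all be of the same class and age. A member that entered only through the vessel or immune class was thus fixed to be higher there than in OL-like cells. How many did so was not counted. Ddx60, Gbp2, Gbp5, Ifi44, Oas1a, Oas2, Oas3 and Trim30a were too low in OL-like cells to enter the age test of that class. Counts are of the members that entered a test, and all genes passed the same filter. In EC, 36 of 36 members tested were higher, where 26.6% of all 11673 genes were higher and 34.5% lower. In Myeloid cells it was 37 of 37, against 23.6% higher and 39.1% lower, and in DC 37 of 37, against 24.6% and 34%. In Lymphoid cells it was 34 of 34, against 19.8% and 31.7%. No member was lower in any of these classes. The members' median log2 fold change was 4.41 in EC, 5.08 in Myeloid cells, 5.30 in DC and 3.72 in Lymphoid cells, and the median of all genes tested was -0.18, -0.46, -0.30 and -0.38. Mural cells had the smallest median. There 22 of 28 members were higher and none lower, against 25.3% and 26.6% of all genes, with a median of 2.71 for members and -0.04 for all genes. The 6 that did not pass were Samhd1, Gbp3, Isg20, Bst2, Xaf1 and Rsad2. With relative log expression size factors the median of all genes moved to -0.35 in Myeloid cells and -0.49 in Lymphoid cells. In each of the 5 classes the count stayed within 1.5 times under the alternatives run for it and without any 1 mouse. Equal cell numbers per mouse were not run for this comparison.

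OL-like cells also held RNA of vessel and myeloid markers. The 8 EC markers summed to 317.5, 84.4, 76.6 and 50.2 CPM in OL-like cells of mice 4, 5, 6 and 7, in mouse 4 more than the members did, and the 9 mural markers to 237, 46.1, 36.4 and 5.9 CPM. Relative to the source class, the 8 EC markers in OL-like cells of these mice reached 1.41%, 0.372%, 0.531% and 0.399% of their level in EC, while the members reached 5.28%, 2.52%, 6.79% and 7.91% of theirs. Measured against Myeloid cells, the 12 markers stood at 0.174%, 0.0935%, 0.538% and 0.0879% and the members at 2.26%, 2.97%, 2.42% and 6.5%. The Myeloid marker sum in OL-like cells was highest in mouse 6 with 57.6 CPM, against 8.07 to 23.8 CPM in the other mice, and the part of RNA from other cells in the OL-like member levels was not tested.

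Of the membrane restriction factors, Ifitm3 had the highest mean of all members over the tested classes, with 1510 CPM. Bst2, with 395 CPM, came after Isg15, with 441 CPM. Ifitm3, which keeps enveloped viruses from fusing with endosomes, was measured at 3156, 2258, 3825 and 1622 CPM in Myeloid cells of mice 4, 5, 6 and 7. In EC it reached 1119, 2085, 2212 and 1390 CPM, and in OL-like cells 25.9, 5.74, 34.4 and 1.56 CPM. Ifitm3 was thus far lower in these tumor cells than in vessel or Myeloid cells, and it was also low in Lymphoid cells with 40.2, 29.99, 92.0 and 157 CPM. In mural cells Ifitm3 was at 940, 1096, 3239 and 2247 CPM, higher in both P70 mice than in both P43 mice, with a log2 fold change with age of 1.64 ± 0.19 (SE, adjusted p = 6.71e-06). Bst2 (tetherin), which holds budding virions at the cell surface, had the highest mean level of all members in OL-like cells, at 28.3, 61.4, 109 and 77.7 CPM. It reached 829, 578, 1216 and 847 CPM in Myeloid cells and 4722 CPM in the pDC of mouse 6, the class in which it was highest. In mural cells Bst2 rose from 29.97 and 56.3 CPM at P43 to 329 and 197 CPM at P70, by 2.91 ± 0.29 on the log2 scale (adjusted p = 1.95e-06).

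Isg15 is a ubiquitin-like protein that is attached to other proteins, and Usp18 removes it and also dampens receptor signalling. Isg15 stood at 517, 384, 2019 and 450 CPM in Myeloid cells and at 1087, 214, 1678 and 478 CPM in DC, so that mouse 6 was the highest in both and the ages overlapped. In EC it was highest in mouse 5, with 306, 680, 381 and 299 CPM. In mural cells Isg15 was at 71.0, 79.2, 421 and 132 CPM, with a log2 fold change of 2.38 ± 0.31 (adjusted p = 3.03e-05). In Lymphoid cells it was at 167, 135, 532 and 510 CPM, with a log2 fold change of 1.78 ± 0.32 (adjusted p = 0.0424). Both P70 mice were above both P43 mice in these 2 classes and also in OL-like cells, where Isg15 was at 4.54, 4.89, 33.3 and 8.28 CPM and did not pass the test. Usp18 was below Isg15, with a mean of 55.7 CPM over the 6 tested classes and 4 mice, against 441 CPM for Isg15.

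Among the transcription factors, Irf7, which drives the second wave of type I interferon production, was measured at 419, 172, 908 and 262 CPM in Myeloid cells and at 703 CPM in pDC of mouse 6. In OL-like cells Irf7 was at 1.25, 2.76, 9.37 and 1.72 CPM. In mural cells it was at 1.58, 7.29, 95.4 and 21.9 CPM, with a log2 fold change of 4.22 ± 0.52 (adjusted p = 1.76e-05), and the value of mouse 7 rested on 2 UMIs. Irf9 and Stat2, which are parts of the ISRE-binding complex, changed with age in none of the classes by this test, and their means over the tested classes were 70.0 and 53.6 CPM.

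The Ifit genes encode proteins that bind viral RNA. Ifit1 was at 111, 230, 139 and 117 CPM in EC, where mouse 5 was highest. In mural cells Ifit1 was at 7.89, 7.29, 77.99 and 32.9 CPM, with a log2 fold change of 3.40 ± 0.43 (adjusted p = 2.22e-05) and 3 UMIs in mouse 7. In Lymphoid cells Ifit1 was at 40.2, 23.6, 128 and 236 CPM and did not pass (adjusted p = 0.0691), although both P70 mice were above both P43 mice. Ifit3 passed in Lymphoid cells, at 17.2, 8.57, 125 and 157 CPM (log2 fold change 3.48 ± 0.55, adjusted p = 0.028). In mural cells Ifit3 also passed, at 15.8, 14.6, 83.1 and 11.0 CPM (2.45 ± 0.42, adjusted p = 0.000486), and here mouse 7 was below both P43 mice. Ifit2 passed in mural cells with mouse 7 between the P43 mice, at 25.2, 16.7, 84.1 and 21.9 CPM (2.08 ± 0.38, adjusted p = 0.000744). Reads of Ifit1 and Ifit3 can be shared with the near-identical genes Ifit1bl1 and Ifit3b, as can those of Oas1a, Gbp2 and Iigp1 with their own copies, so that these values are uncertain.

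The guanylate-binding proteins and immunity-related GTPases act on the vacuoles of intracellular pathogens and are known as strong targets of IFN-γ. Gbp7 peaked in mouse 6 in Lymphoid cells and in mouse 5 in EC, at 155, 146, 340 and 196 CPM in Lymphoid cells and 150, 281, 125 and 156 CPM in EC. In mural cells it was at 44.2, 41.7, 94.4 and 32.9 CPM (log2 fold change 1.19 ± 0.31, adjusted p = 0.0118). Iigp1 in mural cells was at 53.6, 55.2, 268 and 32.9 CPM (2.18 ± 0.37, adjusted p = 0.000463). For both genes the call rested on mouse 6, since mouse 7 was below both P43 mice. In Lymphoid cells Iigp1 was at 5.75, 14.99, 134 and 39.3 CPM (3.23 ± 0.60, adjusted p = 0.0439), with 1 UMI in mouse 7. The guanylate-binding proteins as a group summed to 409, 207, 600 and 95.3 CPM in Myeloid cells and to 342, 653, 346 and 403 CPM in EC.

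Of the sensors of RNA and Z-form nucleic acid, Zbp1, which can trigger inflammatory cell death, passed the age test in 2 classes. It was at 40.2, 53.5, 290 and 275 CPM in Lymphoid cells (log2 fold change 2.52 ± 0.36, adjusted p = 0.0222) and at 3.11, 12.7, 40.6 and 12.99 CPM in EC (2.13 ± 0.50, adjusted p = 0.0143). The Lymphoid P70 values lay well above those of P43, while in EC the value of mouse 7 came from 1 UMI and was hardly above that of mouse 5. Ifih1 (MDA5), which recognises long double-stranded RNA, was at 11.5, 17.1, 100 and 118 CPM in Lymphoid cells (2.70 ± 0.51, adjusted p = 0.0474) and at 31.5, 52.1, 107 and 43.8 CPM in mural cells (1.36 ± 0.32, adjusted p = 0.00645). Ddx60 and Dhx58 were among the 4 members with the lowest mean, with 22.2 and 20.8 CPM, beside Oas1a and Oas2.

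Among the enzymes, Samhd1, which destroys deoxynucleotides, was close between the mice in OL-like cells, with 41.0, 30.4, 34.7 and 34.4 CPM. Its log2 fold change with age there was -0.10 ± 0.24, and in mural cells it was at 53.6, 47.9, 66.7 and 32.9 CPM. Samhd1 was higher in Myeloid cells, at 486, 438, 576 and 156 CPM. Isg20, an RNA exonuclease, passed in EC at 9.34, 20.4, 49.0 and 26.0 CPM (log2 fold change 1.63 ± 0.39, adjusted p = 0.0161), with 2 UMIs in mouse 7. Oasl2, related to the enzymes that make 2′-5′ oligoadenylates, passed in mural cells at 7.89, 32.3, 110 and 11.0 CPM (2.29 ± 0.46, adjusted p = 0.00188), where mouse 7 lay between the P43 mice. Parp14, an ADP-ribosyltransferase, was at 25.2, 36.5, 106 and 21.9 CPM in mural cells (1.74 ± 0.36, adjusted p = 0.00204) and at 240, 205, 560 and 119 CPM in Myeloid cells.

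Of the other members, Xaf1, a pro-apoptotic protein, was at 20.5, 19.5, 10.5 and 29.9 CPM in OL-like cells and at 209, 389, 159 and 117 CPM in EC. It passed in Lymphoid cells at 80.5, 57.8, 337 and 196 CPM (log2 fold change 2.17 ± 0.39, adjusted p = 0.0424) and in mural cells at 58.4, 31.3, 123 and 11.0 CPM (1.48 ± 0.40, adjusted p = 0.0152). Xaf1 in mural cells was lowest of the 4 mice in mouse 7. Rtp4, a chaperone of membrane receptors, passed in mural cells at 11.0, 19.8, 65.7 and 21.9 CPM (2.06 ± 0.41, adjusted p = 0.00164), the last value from 2 UMIs. Trim30a, a tripartite-motif protein of immune cells, reached 184, 226, 343 and 124 CPM in Myeloid cells and at most 3.31 CPM in OL-like cells. The other 19 measured members, which passed no age test, had means over the tested classes and mice from 9.51 CPM (Oas2) to 112 CPM (Rsad2, which makes an antiviral nucleotide).

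**Figure D3:**
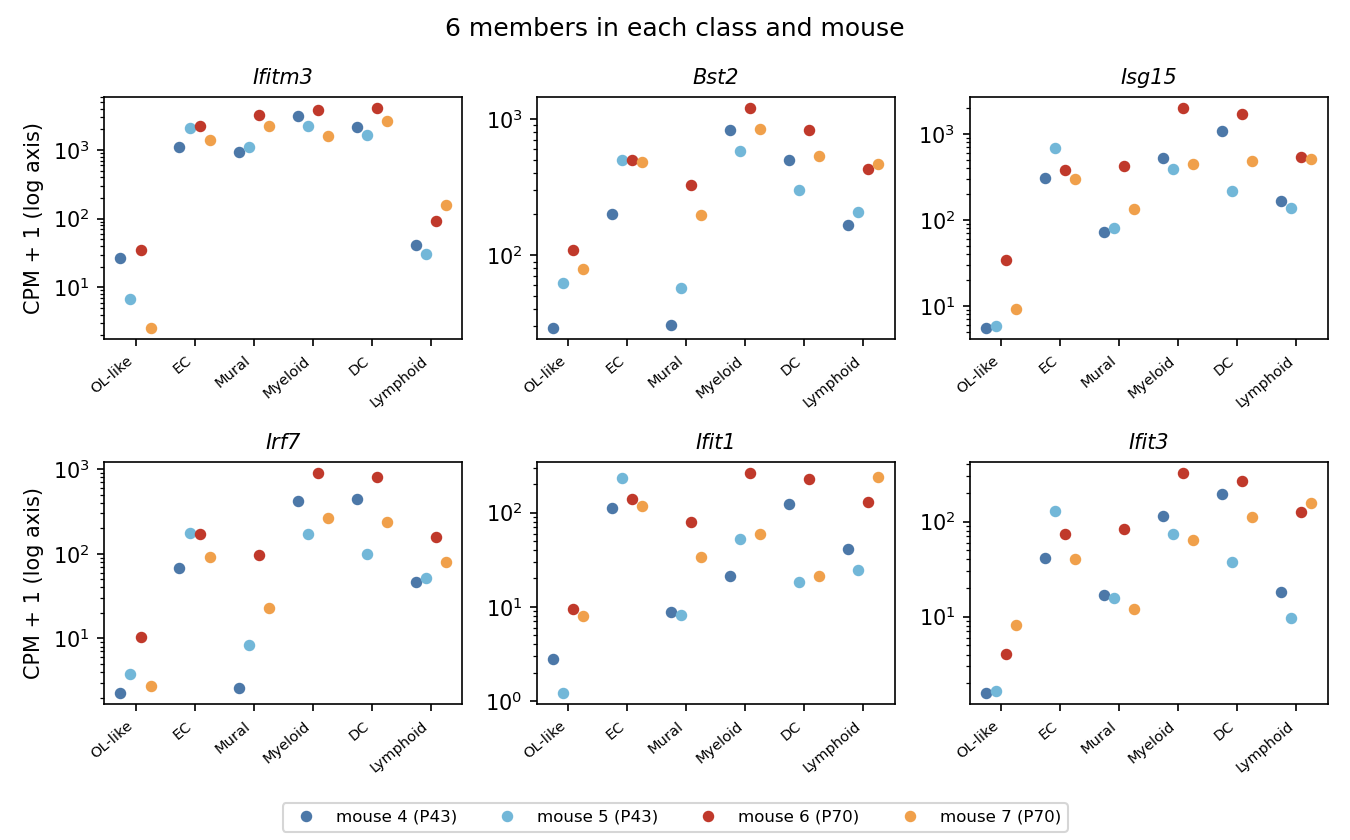
CPM + 1 (log axis) of 6 members in 6 classes, 1 point per mouse. In mural cells the P70 points of Ifitm3, Bst2, Isg15, Irf7 and Ifit1 lie above the P43 points, while the Ifit3 point of mouse 7 does not.

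Taken by class, the age test (edgeR quasi-likelihood test on UMIs summed per mouse, 2 against 2 mice) called 14 of 20 members higher at P70 in mural cells, where 10.7% of all genes were called higher and 8.24% lower. The other 17 measured members were too low there to be tested. The members' median log2 fold change was 1.69 and that of all genes -0.03. Both P70 mice stood above both P43 mice for 6 of 20 members, against 18.5% of all genes. In Lymphoid cells 6 of 30 members were called higher, against 0.546% of all genes higher and 0.327% lower. The median was 1.66 for members and -0.05 for all genes. There 26 of 30 members did not overlap between the ages, against 19.6% of all genes. Mouse 7 had 22 Lymphoid cells with 25470 UMIs in all, so that many of its values there rest on few UMIs. Some members were under the limit of the low-count filter in both P43 mice, so that entry through the P70 mice fixed their order. These included Iigp1, Ifih1 and Ifit3 in Lymphoid cells and Irf7 and Ifit1 in mural cells. All genes passed the same filter. In EC 2 of 35 were called higher, against 6.2% of all genes higher and 3.57% lower, so that the share of members was near the background. Their median was -0.25, with 3 of 35 members above in both P70 mice, against 18.6%. Below in both were 9 of 35 members, and the share of all genes below in both was not counted. Without mouse 5 the EC median was 0.37, with 25 of 35 members positive. No member was called lower in any class.

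These calls depended on mouse 6. Without mouse 6 the calls of higher members in mural cells, Lymphoid cells and EC were lost. Most calls of any higher gene were lost in these classes too, and nearly all in Lymphoid cells and DC. The mural fold changes of Gbp7, Oasl2, Xaf1, Parp14, Iigp1 and Ifit3 then turned negative. So did the median of the members in mural cells, with -0.27 against -0.20 over all genes. In EC the members' median was -0.76, against -0.19. In Lymphoid cells 15 of 17 members were positive without mouse 6, with a median of 1.14 against -0.28. In OL-like cells 26 of 33 were positive, with a median of 0.81 against -0.01. With mouse 7 as the only P70 mouse, a gene could pass the low-count filter through that mouse alone. This fixed the order of the members that did so, among them Ifit1 and Ifitm3 in Lymphoid cells. The runs without mouse 4, mouse 5 or mouse 7 likewise let a gene enter through 1 mouse alone. In mural cells 33 members were then tested, against 20 with all mice. Those that entered through mouse 6 alone were high there by the filter, which without mouse 7 fixed their order between the ages. Their number was not counted. Without mouse 7, 19 of 33 members were called higher in mural cells, where 524 of 9677 genes were. In Myeloid cells it was 23 of 37 members and 285 of 6215 genes, in Lymphoid cells 18 of 33 members and 129 of 6195 genes, and in DC 4 of 37 members and 106 of 7519 genes. In EC 7 of 36 members were called higher and 6 lower, and 950 and 632 of 9428 genes. Without mouse 4, 22 of 33 members were called higher in mural cells, where 718 of 9507 genes were. In Lymphoid cells it was then 12 of 33 members and 92 of 6060 genes, and in DC 12 of 37 members and 95 of 7623 genes, while in EC no member of 36 was called higher and 3 were lower. Without mouse 5, 4 of 35 members and 254 of 9081 genes were called higher in EC. With DESeq2 the numbers were 4 of 20 in mural cells, 1 of 30 in Lymphoid cells and none of 35 in EC. Of all genes, 366 of 8507, 8 of 4581 and 176 of 8828 were called higher there. With equal cell numbers per mouse, 3 were called in mural cells, where only 3 members could be tested, against 307 of 2438 genes. None of 12 was called in Lymphoid cells and none of 13 in EC, against 0 of 1237 and 55 of 2212 genes.

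Mural cells of mouse 6 also held more RNA of Myeloid markers than those of the other mice. The 12 Myeloid markers summed to 55.2, 47.9, 156 and 76.7 CPM in mural cells of mice 4, 5, 6 and 7, with 7, 7, 2 and 10 of the 12 at 0. In Lymphoid cells they summed to 74.7, 36.4, 86.4 and 118 CPM. Without the cells carrying 2 or more markers of another lineage, the members summed to 1497, 1854, 6458 and 2880 CPM in mural cells, in the same order as with all cells.

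**Figure D4:**
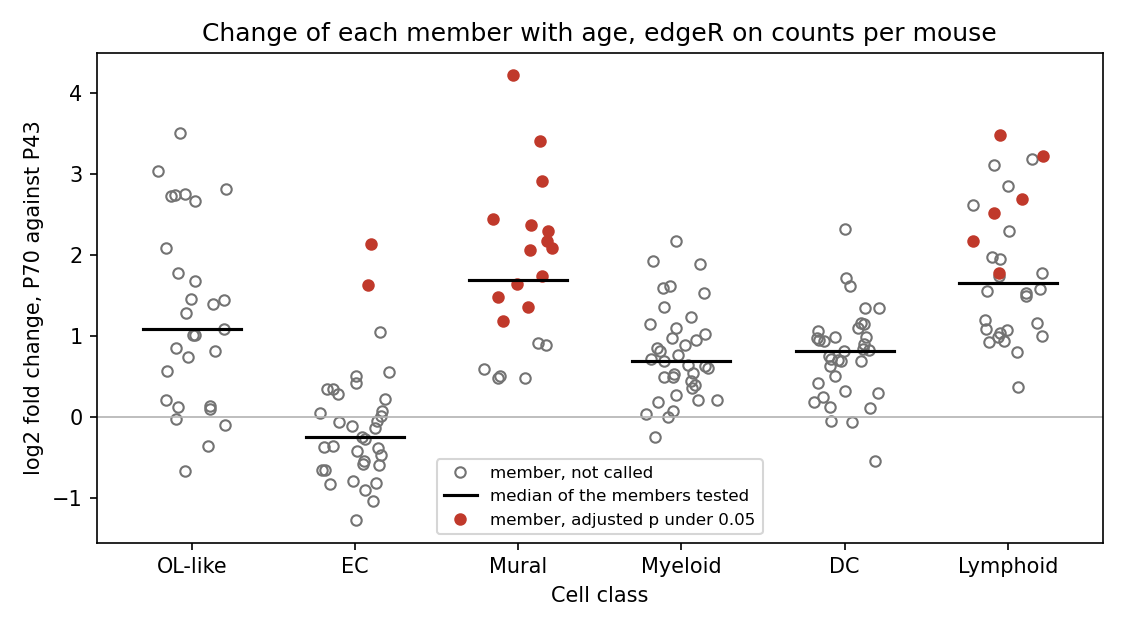
Log2 fold change with age, P70 against P43, of each member tested in 6 classes. Filled points passed an adjusted p of 0.05 and the bar is the members' median, which is highest in Mural with 1.69 and Lymphoid with 1.66 and below 0 in EC with -0.25.

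In Myeloid cells and DC no member was called, although 35 of 37 and 32 of 35 had a positive fold change. The medians were 0.70 in Myeloid cells and 0.82 in DC, against 0.02 and -0.01 over all genes. Both medians turned negative without mouse 6, to -0.75 with 4 of 35 members positive in Myeloid cells and to -0.68 with 7 of 33 in DC, and without mouse 5 that of DC was 0.08. Equal cell numbers brought the Myeloid median to 0.40. Of all genes, 0.0769% and 0.79% were called higher in Myeloid cells and DC and 0.0769% and 0.756% lower. At an unadjusted p under 0.05 there were 2 of 37 members in Myeloid cells, where 593 of 5199 genes passed. In DC there were 4 of 35, where 743 of 5823 genes passed. DESeq2 called 0 members in both, where 38 of 5199 and 40 of 5823 genes were called higher. Both P70 mice were above both P43 mice for 3 of 37 members in Myeloid cells, against 17.3%, and for 3 of 35 in DC, against 19.9%. Here the P70 mice differed most from each other. The median ratio of mouse 6 to mouse 7 over the members was 4.48 in Myeloid cells and 3.81 in DC, whereas over all genes it was 1.03 and 1.01.

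In OL-like cells no gene at all was called with age, so that the background is 0% higher and 0% lower of 11520 genes. Of 29 members tested, 25 had a positive fold change, with a median of 1.09, against 0.00 over all genes. The median was 0.54 with 27 of 34 positive at a limit of 60000 UMIs per cell and 0.42 with 11 of 15 positive at equal cell numbers per mouse. Both P70 mice were above both P43 mice for 19 of 29 members, against 19.1% of all genes. All genes passed the same low-count filter, which a member could also pass through the P70 mice alone. At an unadjusted p under 0.05 there were 13 members, all with a positive fold change, where 529 of 11520 genes passed. DESeq2 called 1 member higher, where 17 of 11520 genes were. Rtp4 was at 1.13, 0.850, 7.99 and 6.85 CPM in OL-like cells (log2 fold change 2.81 ± 0.52), and Iigp1 at 1.02, 0.212, 7.71 and 8.45 CPM (3.51 ± 0.71). Ifit1 was at 1.82, 0.212, 8.54 and 7.01 CPM (2.75 ± 0.84), and Oasl2 at 1.02, 0.850, 5.23 and 7.87 CPM (2.74 ± 0.54). For these genes the P70 tumor cells of both mice lay above those of P43, but none passed the adjustment over all genes. Rtp4, Iigp1 and Oasl2 were under the filter's limit in both P43 mice. Their entry through the P70 mice thus fixed their order between the ages. The other members at that unadjusted threshold were Usp18, Ifit3, Gbp7, Gbp3, Ifi35, Igtp, Isg15, Oasl1 and Rsad2.

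Few OL-like cells carried many members. After thinning each cell to 2000 UMIs, which left out 1065, 15, 21 and 14 shallower OL-like cells, a cell held 0.293, 0.338, 0.776 and 0.531 members on average in mice 4, 5, 6 and 7. At least 5 members were found in 0 of 706 and 0 of 207 OL-like cells at P43, which allows shares of up to 0.425% and 1.45% at this depth. At P70 it was 6 of 290 in mouse 6 (2.07%, 95% Wilson interval 0.952 to 4.44%) and 27 of 1806 in mouse 7 (1.5%, 1.03 to 2.17%). The intervals cover counting error only, and the upper Wilson limit of mouse 5, 1.82%, lay above the share of mouse 7. The absence at P43 holds for this depth only. Thinned to 1000 UMIs, which keeps shallower cells, the most members in an OL-like cell were 5, 9, 6 and 10 in mice 4, 5, 6 and 7, so that mouse 5 was above mouse 6, and without thinning they were 9, 16, 26 and 25. The 27 cells of mouse 7 held 24.8% of all member UMIs of its OL-like cells, and 1 of them carried as many as 17 members. Reporter UMIs were present in 26 of the 27, and 1 carried 2 or more markers of a vessel, myeloid or lymphoid lineage, against 2.02% of the remaining cells. Without these cells the OL-like level of mouse 7 fell from 310 to 236 CPM, still above the 145 and 176 CPM of mice 4 and 5. These levels and the shares of member UMIs were taken before thinning, over the cells with at least 2000 UMIs. In mouse 6 the 6 cells held 23.2% of the member UMIs, and 2 of them carried other lineage markers, both of them Myeloid ones, against 18.3% of the remaining cells.

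**Figure D5:**
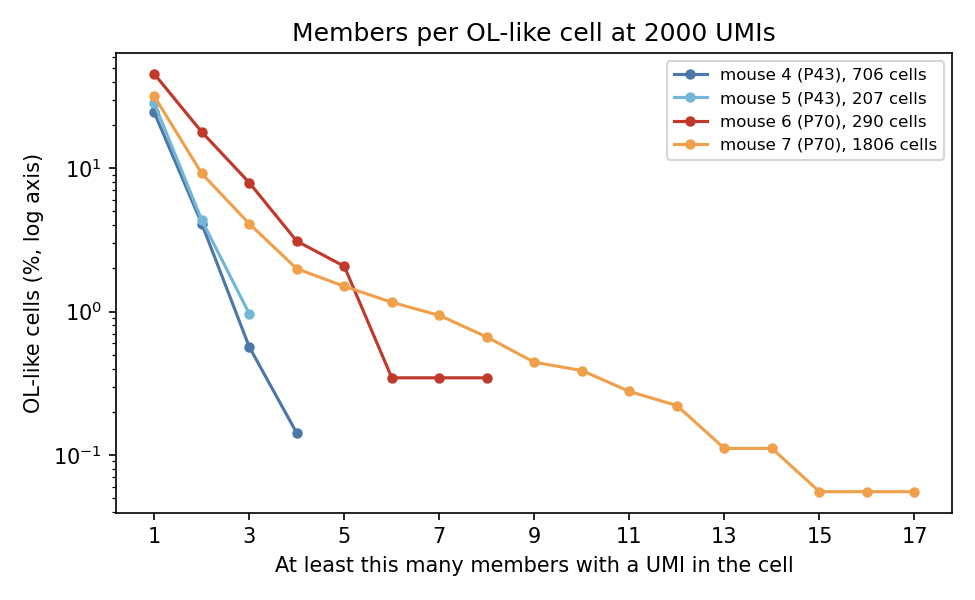
Share of OL-like cells (log axis) with at least the given number of members with a UMI, after thinning to 2000 UMIs, for each mouse. At this depth the P43 curves end at 4 and 3 members, that of mouse 6 at 8 and that of mouse 7 at 17, whereas at 1000 UMIs the most members in a cell are 5 and 9 at P43 and 6 and 10 at P70.

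In MOL and OPC of mouse 7, few cells also held a large share of the member UMIs. Its MOL summed to 2774 CPM, against 136 and 147 CPM in mice 4 and 5, but 3 of 41 cells held 93.4% of these UMIs, and the others were at 212 CPM. Among its OPC, 2 of 96 cells held 38% of the member UMIs, 1 of them with 19 members. NB-like cells of mouse 7 were the lowest class of all, with 63.9 CPM and 0 of 587 cells with at least 5 members, which allows a share of up to 0.511%. In mouse 6 the NB-like sum was 553 CPM over 28 cells, in which the 12 Myeloid markers summed to 109 CPM against 8.06 CPM in mouse 7. AC-like cells held 1787 CPM in mouse 6 and 476 CPM in mouse 7, and 7 of 38 and 5 of 192 of them carried at least 5 members, with 42.5% and 17.9% of the member UMIs. Ifitm3 alone was at 777 CPM in mouse 6 and 15.3 CPM in mouse 7, and the 12 Myeloid markers summed to 99.7 and 39.7 CPM there.

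In the other classes most cells carried members. EC held 4.74, 8.07, 5.99 and 4.90 members per cell at 2000 UMIs, and 78.5%, 96%, 80.4% and 60% of EC held at least 3, the last over 10 cells of mouse 7. Myeloid cells held 6.65, 5.84, 11.8 and 4.48 members and DC 6.04, 4.11, 10.1 and 4.53. In mural cells the values were 1.87, 1.99, 5.16 and 1.87, so that mouse 6 stood apart and mouse 7, with 15 cells at this depth, was at the level of P43. Lymphoid cells held 2.95, 2.62 and 7.46 members in mice 4, 5 and 6.

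Whether the change with age differed between a class and OL-like cells was tested as an interaction. In EC 6 of 36 members changed less with age than in OL-like cells, namely Rtp4, Isg15, Ifit1, Gbp7, Iigp1 and Oasl2, and none more, while 0.788% of all genes changed more and 0.368% less. The differences lay between -3.17 (Rtp4) and -2.23 (Gbp7) on the log2 scale. In mural cells Ifitm3 and Bst2 changed more than in OL-like cells, against 3.44% of all genes more and 1.15% less. In Myeloid cells Oasl2 changed less, against 0.181% more and 0.198% less. For EC, no member was called less changed without mouse 5, mouse 6 or mouse 7, and such calls over all genes then also became fewer. The Myeloid call was lost without mouse 4 or mouse 7, where such calls over all genes became more.

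The ligands were rarely detected. Of 20 interferon genes measured, 14 had no UMI in any kept cell, among them Ifnb1 and 10 of the 13 Ifna genes included. Ifng was the exception with 182 UMIs, of which 177 came from Lymphoid cells. There it was at 402, 167, 78.02 and 39.3 CPM in mice 4, 5, 6 and 7, the last from 1 UMI. Both P43 mice were above both P70 mice, and the difference did not pass the test (log2 fold change -1.91 ± 0.54, adjusted p = 0.17). Ifnk had 19 and Ifnab 5 UMIs over all mice.

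Of 6 receptor genes measured, 5 were tested against OL-like cells, and the sixth, Ifnlr1, had at most 19 UMIs in any tested class and mouse. Ifnar2 was at 36.4, 26.8, 52.1 and 61.0 CPM in OL-like cells and at 191, 202, 149 and 221 CPM in EC, and Ifngr1 was at 638, 514, 847 and 1296 CPM in Lymphoid cells and at 26.1, 23.4, 31.7 and 14.4 CPM in OL-like cells. All 5 receptor genes tested were higher in EC, mural cells, Myeloid cells and DC than in OL-like cells, and 3 of 5 in Lymphoid cells. Ifngr2 rose with age in mural cells, from 39.4 and 37.5 CPM to 92.4 and 153 CPM (log2 fold change 1.62 ± 0.29, adjusted p = 0.000678), and in EC (1.27 ± 0.27, adjusted p = 0.00812). Of the signalling proteins, Jak1 was at 41.8, 22.3, 17.1 and 28.3 CPM in OL-like cells and did not pass. Irf1 rose in mural cells by 2.77 ± 0.32 (adjusted p = 9.69e-06) and Irf8 in EC by 2.98 ± 0.65 (adjusted p = 0.00861). Of the sensing and inhibitory genes with the highest levels, Unc93b1, which carries Toll-like receptors to endosomes, was at 389, 524, 575 and 466 CPM in Myeloid cells and did not pass. Ptpn1, a phosphatase that acts on Janus kinases, was at 91.5, 114, 212 and 175 CPM in mural cells (1.18 ± 0.22, adjusted p = 0.0011), and Ptpn6, a phosphatase of blood cells, was at 399, 275, 316 and 254 CPM in Myeloid cells.

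Of the 146 further pathway genes measured, 32 of 70 tested rose with age in mural cells and none fell. In EC 11 of 86 rose and 1 fell, in Lymphoid cells 4 of 77 rose, in DC 3 of 100 rose, and in Myeloid (97 tested) and OL-like cells (69 tested) none was called. The shares of all genes higher at P70 were 10.7% in mural cells, 6.2% in EC, 0.546% in Lymphoid cells and 0.79% in DC. Pathway genes were tested with all mice only, so that the dependence of their calls on mouse 6 was not examined. In mural cells, 21 of 36 other induced genes, 4 of 12 nucleic acid sensing genes (Ifi204, Ifi211, Eif2ak2 and Sting1), 4 of 9 inhibitors (Ube2l6, Ptpn1, Uba7 and Socs3), 2 kinases and transcription factors and 1 receptor rose. Among them was Ly6e, a surface protein that was at 23.7, 5.21, 280 and 121 CPM (log2 fold change 4.43 ± 0.42, adjusted p = 1.43e-06). Ifi27l2a was at 0, 3.13, 430 and 164 CPM, and Socs3, a feedback inhibitor of cytokine signalling, at 15.8, 16.7, 122 and 142 CPM (3.13 ± 0.30, adjusted p = 1.39e-06). Both P70 mice were above both P43 mice for these 3 genes, of which Ifi27l2a was under the limit of the low-count filter in both P43 mice. Cxcl10, which attracts T cells, was at 0, 3.13, 390 and 54.8 CPM in mural cells. Cxcl10 also rose in Lymphoid cells, at 28.7, 32.1, 245 and 196 CPM (2.89 ± 0.40, adjusted p = 0.0222). In both classes it was under the limit of the low-count filter in both P43 mice. Its entry through the P70 mice thus fixed its order between the ages. The immunoproteasome subunits Psmb8, Psmb9 and Psmb10 and the peptide transporter Tap1 rose in mural cells, Psmb8 from 12.6 and 19.8 CPM to 163 and 76.7 CPM (3.31 ± 0.34, adjusted p = 2.75e-06). The other induced genes that rose in mural cells were Sp100, Ifi203, Ifitm2, Psme1, Psme2, Phf11d, Shisa5, Lgals9, Slfn5, Slfn9, Trim25, Lgals3bp, Apobec3 and Ifit3b.

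In EC the 11 pathway genes that rose were Ifi204, Cxcl9, Ifitm1, Irf8, Phf11d, Socs3, Ifi27l2a, Apobec3, Ifngr2, Sting1 and Gm4951, and Irgm2 fell by 1.39 on the log2 scale. The Myeloid marker sum in EC was also higher in both P70 mice than in both P43 mice. The part of RNA from other cells in these changes was not tested. Sting1, which signals the presence of cytosolic DNA, was at 2.08, 6.11, 69.3 and 77.95 CPM in EC (log2 fold change 3.98 ± 0.41, adjusted p = 4.05e-05), so that both P70 mice were far above both P43 mice. Ifi204, a DNA sensor, was at 1.04, 2.04, 39.7 and 26.0 CPM in EC (4.51 ± 0.55, adjusted p = 0.000124). In Lymphoid cells Ifi204 was at 0, 6.43, 109 and 78.5 CPM. The change of Ifi204 also passed the test there, with 0 and 3 UMIs at P43 and few in mouse 7, whose Lymphoid cells held 25470 UMIs in all. Like Sting1 and Ifi204 in EC, it was under the limit of the low-count filter in both P43 mice. In Lymphoid cells Ly6a and Ms4a4c rose as well, and in DC it was Ifitm1, Ifitm2 and Trim25.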

How the data were processed

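Droplet-based (10x) single-cell RNA sequencing libraries of 4 tumor-bearing mice were used, and libraries of other ages were not analysed here. Per the labels, the deposited values are UMI counts per gene and cell that the authors made with Cell Ranger 6.0.2 on mm10. The labels give a dual-index kit and the study's methods a single-index kit. Genes seen in at least 3 cells of a library and cells with at least 200 genes, under 25% mitochondrial counts and at most 40000 UMIs were kept (Seurat 5.3.0). The cells were clustered on 2000 variable genes without the members, 30 principal components and a resolution of 0.5, which gave 21 clusters. Of these, 19 were named by at least 3 markers with a fold of 2 and, for tumor classes, by over 500 CPM of reporter genes, and 2 clusters of 1032 cells stayed unassigned. Scrublet called 34 of 10975 cells doublets (0.31%) and is taken as not having worked, so no cells were removed as doublets. UMIs were summed per class and mouse where a class had at least 20 cells in each mouse for a test or 10 for a value, and were tested with edgeR 4.0.16 (quasi-likelihood, TMM, Benjamini-Hochberg over all genes past the filter on low counts, called at 0.05). The mouse was a block in comparisons between classes. DESeq2 1.42.0, relative log expression size factors, other filters, other clusterings and leaving out each mouse were the alternatives. Per-cell values were computed in Python 3.11.15 after thinning to 2000 UMIs. Described one by one were the members called with age and the 8 with the highest mean CPM, and of the pathway genes those called and the 2 highest of each list. The tests were checked on simulated data. The members and lists were chosen with earlier results of these data known. A further allele that all mice shared and 1 pathway gene are not reported here.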

Additional observations from a re-analysis of the deposited data

Results flagged for a closer look

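For 9 pairs of a member and a class, the change with age differed from that in OL-like cells in the edgeR interaction test. The values are the log2 change in the class minus that in OL-like cells. In EC the differences were -3.17 for Rtp4, -3.01 for Iigp1, -2.95 for Ifit1, -2.54 for Oasl2, -2.34 for Isg15 and -2.23 for Gbp7. In Myeloid cells the difference was -2.56 for Oasl2. In mural cells it was 2.33 for Ifitm3 and 1.74 for Bst2. A smaller change was thus called for 6 of 36 members in EC and 1 of 37 in Myeloid cells, against 0.368% and 0.198% of all genes. A greater change was called for 2 of 28 members in mural cells, against 3.44% of all genes. The calls in each class depended on the mouse left out. What lies behind these differences was not tested.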

How the results depend on the processing

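Of the summary values recomputed under the alternatives, 356 stayed the same and 68 moved, and of the fold changes of single members 295 stayed the same, 101 lost the call and 6 changed sign. The causes were not tested. With DESeq2, members higher at P70 numbered 1 of 29 in OL-like, 4 of 20 in mural, 1 of 30 in Lymphoid and 0 of 35 in endothelial cells. Of all genes, 17 of 11520, 366 of 8507, 8 of 4581 and 176 of 8828 were higher there. Members with a smaller change than in OL-like cells were 1 of 36 in EC and 0 of 37 in Myeloid cells. For all genes these were 13 of 11673 and 0 of 12129. Members with a greater change were 1 of 28 in mural cells, against 188 of 11573 genes. With equal cells per mouse, 0 of 13 members were higher in EC, 3 of 3 in mural cells and 0 of 12 in Lymphoid cells. Of all genes, 55 of 2212, 307 of 2438 and 0 of 1237 were higher there. Without the filter on low counts, of 37 members 28 were higher in mural cells, 9 in Myeloid cells, 9 in DC and 10 in Lymphoid cells. Genes higher there were 1180 of 13830, 161 of 13381, 199 of 13375 and 60 of 12179. In EC 4 members were lower, against 460 of 13851 genes. A smaller change was called for 10 members in EC and 0 in Myeloid cells, against 94 of 17045 and 17 of 17115 genes. A greater change was called for 4 members in mural cells, against 406 of 17021 genes. Without cells with markers of another lineage, 1 of 35 members was higher in EC and 2 of 34 in DC. For all genes these were 513 of 8460 and 120 of 5371. A smaller change was called for 11 of 36 members in EC, 1 of 27 in mural cells and 4 of 37 in Myeloid cells. For all genes it was called for 107 of 11378, 159 of 11204 and 45 of 11787. A greater change was called for 1 of 27 members in mural cells, against 361 of 11204 genes. With a mitochondrial share under 10%, 1 of 35 members was lower in EC and 1 of 28 had a greater change in mural cells. For all genes these were 334 of 8728 and 343 of 11539. Without the 5% highest doublet scores, 1 of 35 members was lower in EC and 2 of 29 were higher in Lymphoid cells. In mural cells 1 of 28 had a greater change. For all genes these were 306 of 8645, 15 of 4507 and 312 of 11560. With the members among the variable genes, 1 of 30 had a greater change in mural cells and 4 of 37 a smaller one in Myeloid cells. For all genes these were 335 of 11631 and 42 of 12182. With a limit of 60000 UMIs the members numbered 5 of 29 and 0 of 37, against 367 of 11919 and 10 of 12401 genes. With relative log expression size factors they numbered 1 of 28 and 2 of 37, against 351 of 11573 and 28 of 12129 genes. At a resolution of 1.0, 0 of 37 had a smaller change in Myeloid cells, against 22 of 12200 genes. Members per cell, as the mean of 4 mice, were 1.85 in OL-like cells and 9.70 in DC without thinning and 3.72 in EC at 1000 UMIs.

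Leaving out each mouse in turn gave 0 to 7 members higher and 0 to 6 lower in EC, 0 to 22 higher in mural cells, 0 to 23 higher and 0 to 3 lower in Myeloid cells, 0 to 12 higher in DC and 0 to 18 higher in Lymphoid cells. For the change with age against OL-like cells, the member calls in EC, mural and Myeloid cells also depended on the mouse left out, and so did the calls over all genes. The lone mouse left in an age group is then assumed to vary like the others. In the age test, calls over all genes also changed with the mouse left out in EC, mural, Myeloid, DC and Lymphoid cells. The ranges of member counts alone therefore do not set the members apart from all genes. The 3 lower members in Myeloid cells were called without mouse 6, where lower calls over all genes were also most numerous. The members' median log2 change was then -0.75, against -0.03 over all genes. The log2 changes in mural cells ranged from -0.22 to 1.35 for Gbp7, from -0.84 to 3.59 for Oasl2, from -1.80 to 1.83 for Xaf1, from -0.37 to 1.94 for Parp14, from -0.57 to 2.50 for Iigp1 and from -0.30 to 2.66 for Ifit3, each lowest without mouse 6. No paired analysis was possible because the ages share no mouse. Depth limits the vessel and Lymphoid values of mouse 7, where 1 UMI in mural cells is worth 11.0 CPM. Its EC held 76970 and its Lymphoid cells 25470 UMIs in all, so that many of their values rest on few UMIs.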
